A study of Mus musculus with 12 samples.

Results

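The tetraspanins are a family of small membrane proteins, and their genes were examined here for binding of Runx1b in haemogenic endothelium, the endothelial cells from which blood cells emerge. Members were chosen by gene symbol, as every protein-coding gene named Tspan followed by a number, together with Cd9, Cd37, Cd53, Cd63, Cd81, Cd82 and Cd151. This gave 27 genes of the 21887 protein-coding genes in RefSeq (assembly GRCm38.p6). A member counted as bound when the deposited table held a row for it, that is, at least 1 region assigned to it. All 27 members are accounted for here, and no further filter on low values was applied to the deposited table. Members without a row have no value in it.

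Binding was profiled by DamID-seq, in which a DNA-binding protein is fused to the bacterial methylase Dam, and the adenines it methylates in GATC sequences are read out by sequencing. The fusion group was the mouse embryonic stem cell line iRunx1b::Damko, which carries Runx1b joined to Dam, and it was set against the line iDamko, with Dam alone. Both are of strain 129 and both lack functional Runx1, so the fusion acted in cells without the native protein. From each line FLK1+ cells were taken at d3.25 of embryoid body culture (a day count), kept for 2 days in liquid blast culture and isolated again, as cKIT+ TIE2+ CD41- cells by flow cytometry in 2 libraries and as FLK1+ cells by magnetic sorting in 4 libraries. Of the 6 libraries per line, 3 are named as biological and 3 as technical replicates. The deposited table holds 1 read count per gene and names no library. Library depth is therefore unknown, values come without an error between replicates, and reads of Dam alone at a gene are not shown by it. A binding table does not measure RNA, so the labelled cell type could not be checked against expression of its markers.

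Tetraspanins cross the membrane 4 times and gather integrins, immunoglobulin-like proteins and proteases into membrane patches, which shapes adhesion, migration and protein shedding. One branch, TspanC8, carries the protease ADAM10 to the cell surface, where ADAM10 cleaves Notch and endothelial cadherin. A few members are found mainly on leukocytes.

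The table lists genes and not single binding sites, and no genome of its build, mm9, was used. The sequences shown are therefore the 250 bases before annotated starts from the RefSeq promoter table (GRCm38.p6), for 3 genes with a region. They let the 2 kinds of letters that bear on the assay be seen, namely GATC, where Dam can act, and the RUNX core motif. Capitals mark GATC and the motif letters TGTGGT or TGCGGT on either strand (ACCACA or ACCGCA on the printed strand). No capital run in these 3 sequences joins a GATC to a RUNX motif. Tspan15, with the most reads per kb in the family, is shown on the minus strand at chr10:62231219-62231468. For Cd82 the window of an internal start is shown, on the minus strand at chr2:93452673-93452922, and for Tspan32 the plus strand at chr7:143004796-143005045.
Tspan15: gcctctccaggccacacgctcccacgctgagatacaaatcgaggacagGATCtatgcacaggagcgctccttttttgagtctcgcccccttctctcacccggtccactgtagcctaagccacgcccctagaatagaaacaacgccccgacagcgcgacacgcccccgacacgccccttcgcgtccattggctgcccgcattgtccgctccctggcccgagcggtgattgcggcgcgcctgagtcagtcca
Cd82: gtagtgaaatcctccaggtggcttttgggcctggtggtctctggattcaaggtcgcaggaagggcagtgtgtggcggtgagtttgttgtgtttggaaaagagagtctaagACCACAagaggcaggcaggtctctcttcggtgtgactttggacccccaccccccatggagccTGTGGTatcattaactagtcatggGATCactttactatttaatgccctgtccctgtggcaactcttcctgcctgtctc
Tspan32: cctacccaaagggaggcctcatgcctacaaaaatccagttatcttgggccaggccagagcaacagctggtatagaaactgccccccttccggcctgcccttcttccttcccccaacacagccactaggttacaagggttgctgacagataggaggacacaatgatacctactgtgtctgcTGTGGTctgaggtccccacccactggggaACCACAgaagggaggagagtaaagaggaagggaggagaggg

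In these windows Tspan15 had no RUNX motif and 1 GATC, Cd82 had 2 RUNX motifs and 1 GATC, and Tspan32 had 2 RUNX motifs and no GATC. The Cd82 window shown held the most RUNX motifs among the starts of that gene, and its other windows held 1 or none. At Tspan32 the motifs end 65 and 36 bases before the start. The promoter table held 14 of the 15 members with a region (not Tspan18) and all 12 without one. Counting any of a gene's starts, 3 of the 14 genes with a region (21.4%) held a RUNX motif, namely Cd82, Tspan2 and Tspan32. Among the 12 members without a region it was 2 (16.7%), Cd53 and Tspan3, and among 17492 protein-coding genes 3520 (20.1%). A GATC stood in the window of 8 of 14 genes with a region (57.1%), of 4 of 12 without one (33.3%) and of 44.9% of all protein-coding genes. Members with a region have more annotated starts, and counted per start the shares with a GATC were 10 of 23 (43.5%), 5 of 13 (38.5%) and 40.7%. For the RUNX motif the shares per start were 5 of 23 (21.7%), 2 of 13 (15.4%) and 17.7%. TGTGGT alone stood in 3 of 14 genes with a region (21.4%), 2 of 12 without one (16.7%) and 14.3% of all genes. The shares of members rest on few genes, and differences were not tested. Whether a region overlaps one of these windows was not analysed, since windows and regions are of different builds.

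A region was assigned to 15 of the 27 tetraspanin genes (55.6%), against 4572 of 21887 protein-coding genes (20.9%). The 15 genes lie on 7 chromosomes. They are Cd9, Cd81, Cd82, Cd151, Tspan2, Tspan5, Tspan9, Tspan12, Tspan13, Tspan14, Tspan15, Tspan18, Tspan31, Tspan32 and Tspan33. The 12 genes without one are Cd37, Cd53, Cd63, Tspan1, Tspan3, Tspan4, Tspan6, Tspan7, Tspan8, Tspan10, Tspan11 and Tspan17. Since having a region is what the table itself records and the family was picked with these data known, this share is given as a description with no test. It rests on single-gene assignments for 13 members, and on regions also assigned to a processed transcript for Cd82 (Gm10804) and Tspan32 (Gm15024). Counting single-gene regions only, the share was 13 of 27 (48.1%), against 18.0% of all protein-coding genes.

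Gene length bears on this share, because long genes hold a region more often. Members with a region had a median length of 37.5 kb (from 3.69 kb in Tspan31 to 182 kb in Tspan9), and members without one 17.4 kb (from 4.69 kb in Tspan10 to 111 kb in Tspan7). All 27 members had a median of 27.9 kb, against 17.2 kb over all protein-coding genes. To set members beside genes of their own size, all protein-coding genes were ranked by length and cut into 10 classes of equal number. In the 5 shorter classes, up to 17.2 kb, a region was assigned to 4 of 10 members and to 12.9% of all genes. In the next 3 classes, up to 57.1 kb, it was 6 of 10 members and 22.1% of all genes. In the 2 longest classes it was 5 of 7 members and 39.2% of all genes. If each member had the share of its own class, 6.56 of the 27 (24.3%) would have a region, against the 15 found. The longer lengths of the family thus moved the figure for comparison to 24.3%, from 20.9% over all genes. Length did not separate the members cleanly. Tspan31 and Cd151, at 3.69 and 4.12 kb, each had a region, whereas Tspan7 and Tspan11, at 111 and 65.5 kb, had none.

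**Figure D1:**
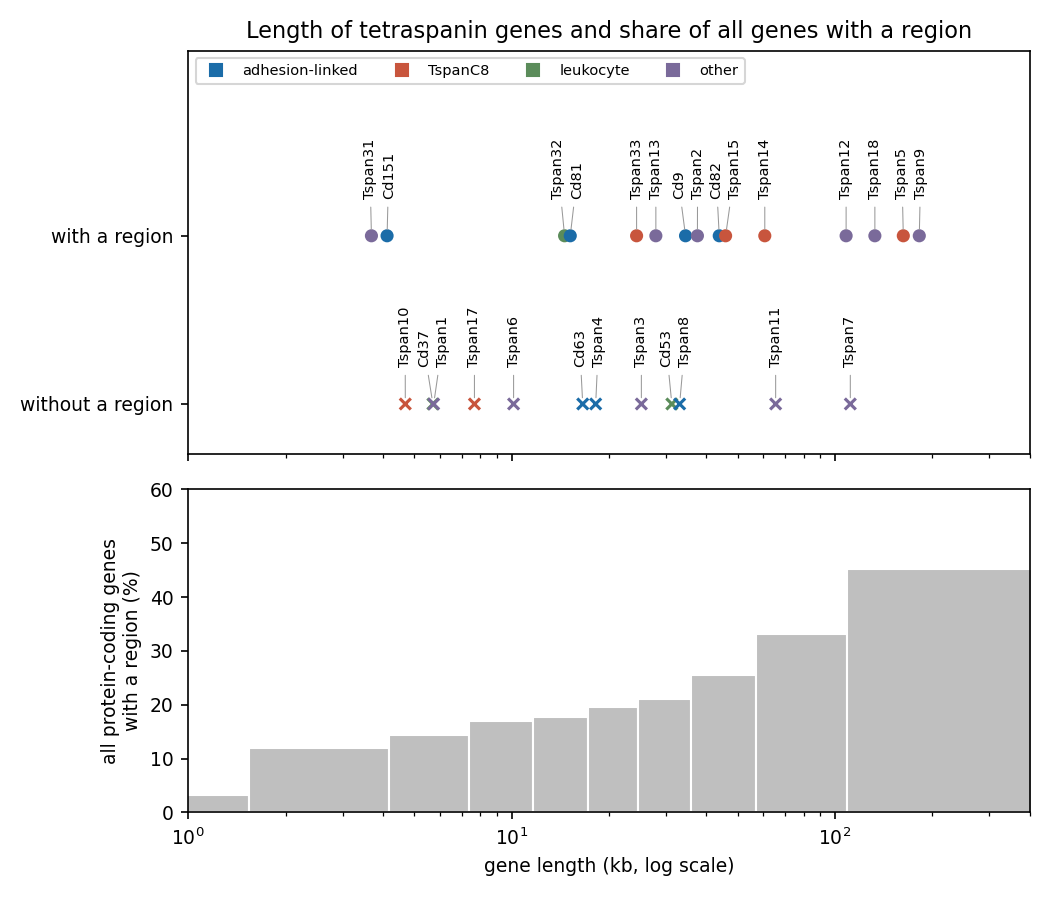
The upper panel places each tetraspanin gene by its length (kb, log scale), the 15 with a region above the 12 without, coloured by role. The bars below give the percentage of all protein-coding genes with a region in each of 10 length classes, from 3.15% in the shortest to 45.2% in the longest; the axis leaves out genes beyond both ends of the panel.

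Of the adhesion-linked tetraspanins, which associate with integrins or act in adhesion and motility, 4 of 7 had a region. Over all protein-coding genes the share was 20.9%. The groups by role are small, and differences between their shares were not tested. Cd81, a partner of immunoglobulin-like membrane proteins, had 5925 reads in 2 regions on chromosome 7 between 150242781 and 150248731 (ENSMUSG00000037706). That is 1247 reads per kb, with an exact 95% Poisson interval of 1215 to 1279. Poisson intervals here take each read as a separate molecule and hold no error between replicates. PCR copies are not separate molecules, so the intervals can be too narrow even for counting error. Reads per kb are the gene's reads divided by the summed length of its regions. This division adds no scaling to library size or to Dam. Whether the read counts themselves were scaled or set against Dam is not stated. The median over all 5867 listed genes was 683 (quartiles 515 and 918).

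Cd9, which links integrins with immunoglobulin-like partners and is needed on the egg for sperm fusion, had 9351 reads in 3 regions on chromosome 6 between 125426069 and 125442769 (ENSMUSG00000030342). Its value was 1056 reads per kb (1035 to 1078), above 83.0% of listed genes. Cd151, the partner of laminin-binding integrins, had 1350 reads in 1 region of 1.65 kb on chromosome 7 from 148654381 to 148656031, at 818 reads per kb (775 to 863). Cd82, a suppressor of tumour cell motility, had 3861 reads in 1 region of 4.8 kb on chromosome 2 from 93296374 to 93301174, at 804 reads per kb (779 to 830.0). All 4 genes lay above the median of listed genes. Cd63, a protein of late endosomes and secreted vesicles, Tspan4 and Tspan8 had no region.

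Of the TspanC8 genes, whose proteins escort ADAM10, 4 of 6 had a region, against 20.9% of all protein-coding genes. Tspan15 had 3001 reads in 1 region of 2.05 kb on chromosome 10 between 61679270 and 61681320 (ENSMUSG00000037031). Its 1463 reads per kb (1411 to 1516) were the most in the family and exceeded 95.2% of listed genes. Tspan33, known from red cell precursors and activated B cells, had 1834 reads in 1 region on chromosome 6 from 29656469 to 29658669, at 833 reads per kb (796 to 872). Tspan5 had 8350 reads in 4 regions on chromosome 3 from 138406002 to 138558852, at 657 reads per kb (643 to 672), just under the median of listed genes. Tspan10 and Tspan17, the shortest of the 6 genes at 4.69 and 7.67 kb, had none. In their length classes 14.4% and 16.9% of all protein-coding genes had a region. In the classes of the 4 genes with a region it was 19.6% to 45.2%.

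Tspan14, the fourth bound TspanC8 gene, stood out by the width of its regions (ENSMUSG00000037824). Its 3 regions on chromosome 14 between 41741226 and 41786676 were 11000, 15200 and 6100 bp wide. By width the first ranked 14th and the second 3rd among all 8133 regions, of which 16 were 11 kb or wider and the widest was 18.35 kb. Together they covered 32.3 kb, a length equal to 53.3% of the 60.6 kb gene. Genes with a region in the same length class covered a median of 3.15 kb, and 2 of those 726 genes, Tspan14 included, reached as much. Its 29292 reads were the 14th most of any listed gene, but per kb they came to 907 (896 to 917), above 74.1% of listed genes and 1.05 times the median of 865 on chromosome 14. Among all listed genes it ranked 11th by the summed width of its regions and 1522nd by reads per kb.

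Of the leukocyte-restricted tetraspanins 1 of 3 had a region, against 20.9% of all protein-coding genes. Tspan32, a blood cell tetraspanin also known as Tssc6, had 2344 reads in 1 region of 3.4 kb on chromosome 7 from 150191081 to 150194481, at 689 reads per kb (662 to 718). This value lay close to the median of listed genes. Cd37 and Cd53, which act in lymphocyte and myeloid cell migration and signalling, had no region.

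Of the 11 other tetraspanins 6 had a region, against 20.9% of all protein-coding genes. Tspan18, a regulator of store-operated calcium entry in endothelial cells, appeared in the table under 2 gene records. ENSMUSG00000027217 had 34212 reads in 9 regions, at 1192 reads per kb (1179 to 1204), and ENSMUSG00000023461 had 13453 reads in 3 regions, at 828 (814 to 842). The records share 2 regions, so 10 distinct regions were assigned to Tspan18, which cover 36.45 kb of a 138 kb stretch of chromosome 2 from 93055724 to 93193824. That spread is longer than the gene in RefSeq (132.8 kb), and how far each record extends is not stated by the table. Because 2 regions are counted in both records, their reads cannot be summed. The 7 regions of the first record alone hold at least 20759 reads, or 1027 reads per kb. The 34212 reads of the first record were the 8th most of any listed gene.

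Tspan9, best known from platelets, had 28366 reads in 11 regions on chromosome 6 from 127941219 to 128093119, a stretch of 151.9 kb (ENSMUSG00000030352). Its value was 1005 reads per kb (994 to 1017), above 80.0% of listed genes. It was 1 of 9 listed genes with 11 or more regions. The regions were unevenly placed, with 6 of the 11 in the 41.7 kb at the higher coordinates. In RefSeq Tspan9 is on the minus strand, so this is the side of the gene's outermost start. Further starts are annotated within the gene, and regions were not placed against any of them.

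Tspan12, a co-receptor for Norrin signalling in retinal vessels, had 2293 reads in 2 regions 57.5 kb apart on chromosome 6 from 21739619 to 21801669, at 504 reads per kb (483 to 525). Tspan31 had 1434 reads in 1 region on chromosome 10 from 126507220 to 126509270, at 699 reads per kb (663 to 736). Tspan13 had 1482 reads in 1 region on chromosome 12 from 36782979 to 36785429, at 605 reads per kb (574 to 636). Tspan2, a gene of myelinating cells, had the fewest reads per kb of the family, 301 (284 to 319.5), from 1131 reads in 2 regions on chromosome 3 between 102552252 and 102562702. Only 8.06% of listed genes had a lower value. Tspan1, Tspan3, Tspan6, Tspan7 and Tspan11 had no region. Tspan6 and Tspan7 are the 2 members on chromosome X, where 22.7% of protein-coding genes had one, against 21.0% on autosomes.

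**Figure D2:**
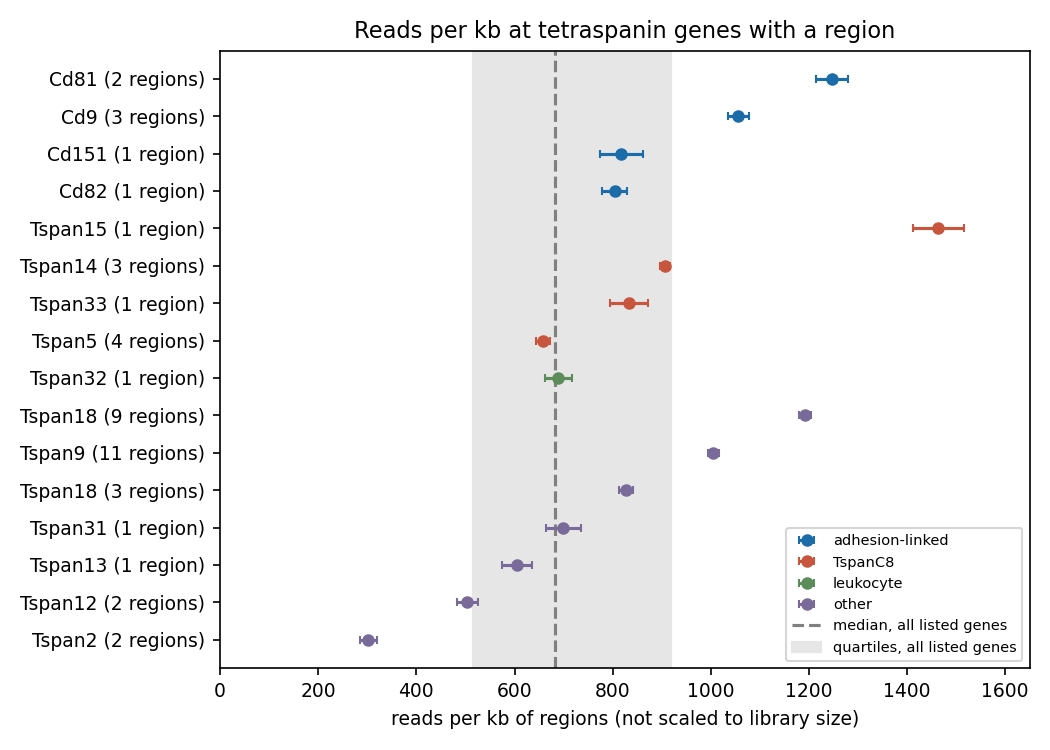
Points give reads per kb of regions for the 16 gene records of tetraspanins with a region (Tspan18 has 2), grouped by role. Bars give the exact 95% Poisson interval of the read count, which takes each read as a separate molecule. The grey band spans the quartiles 515 and 918 of all 5867 listed genes and the dashed line their median of 683; Tspan15, Cd81, Cd9, Tspan9 and the larger Tspan18 record lie above the band and Tspan12 and Tspan2 below it.

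Taking the Tspan18 record with more regions, the 15 genes had a median of 818 reads per kb (quartiles 673 and 1031), against 686 (518 and 915) for the 4572 protein-coding genes with a region. Of the 15 genes, 11 lay above the median of all listed genes, and 10 lay above the median of genes with a region in their own length class. As a share of the family this was 11 of 27 (40.7%), against 10.5% of all protein-coding genes that had a region and a value above that median. Chromosomes differed in their median reads per kb. Divided by the median of its own chromosome, the value was highest for Tspan15 (2.20), followed by Cd81 (1.77), Tspan18 (1.68), Cd9 (1.61) and Tspan9 (1.53), and lowest for Tspan2 (0.460).

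The number of regions set a few long members apart. The 15 genes had 44 distinct regions, with a median of 2 per gene, against 1 over all protein-coding genes with a region. More than 1 region was found in 8 of the 27 members (29.6%), against 6.41% of all protein-coding genes, and 5 or more in 2 members (7.41%), Tspan9 and Tspan18, against 0.667%. Among genes with a region, the share with more than 1 was lowest in the shortest class (5.80%) and highest in the longest (53.9%). In the class of Tspan31 and Cd151 it was 14.0%. If each of the 15 bound members had the share of its own class, 4.70 would have more than 1 region, against the 8 found. In the longest class, 989 genes had a region and their median was 2 regions. Only 6 of these had as many as the 11 of Tspan9, and 19 had as many as the 9 of the larger Tspan18 record, while 186 had as many as the 4 of Tspan5. Among shorter genes with a region, 33 of the 462 in the class of Cd9 reached its 3 regions, and 60 of 390 in that of Cd81 reached its 2. Both numbers of regions equal the 95th percentile of their class and do not exceed it.

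**Figure D3:**
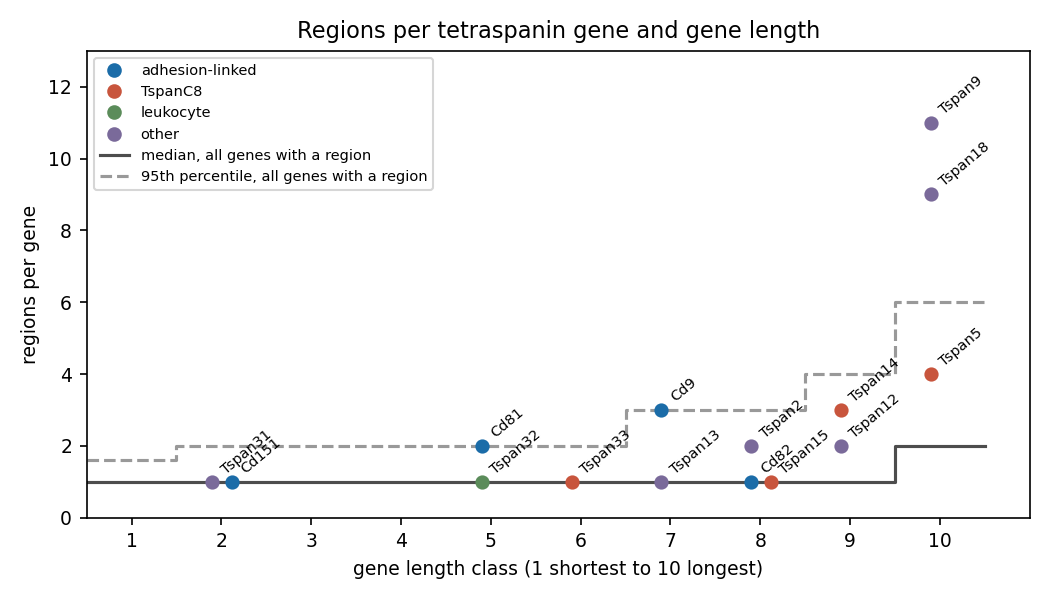
Each point is a tetraspanin gene with a region, placed by its length class (1 shortest, 10 longest; points of 1 class are shifted sideways) and its number of regions, with the larger record used for Tspan18. Lines give the median (solid) and the 95th percentile (dashed) over all protein-coding genes with a region; Tspan9 and Tspan18 lie above the 95th percentile of 6 regions in the longest class.

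The spread of regions also differed within the family. The distance between the first and the last region end ran from 5.95 kb in Cd81 to 152.85 kb in Tspan5 for the 8 genes with more than 1 region. Their median, with the larger record used for Tspan18, was 53.75 kb, against 35.05 kb over 1402 protein-coding genes with more than 1 region. Of the 8 genes, 3 are in length class 10 and 2 in class 9, and spans were not set beside those of genes of like length. In Tspan5 a single region stood 123.5 kb from the other 3, which lie together in 27.4 kb; the gene is on the plus strand in RefSeq, so the single region is the one on the side of the start. Tspan14 was the opposite, with gaps of 6.55 and 6.6 kb between its 3 wide regions. Regions of Cd9 and Cd81 lay 1.15 and 1.2 kb apart at their closest. A region of 6 kb or wider was found in 4 members, Tspan5, Tspan9, Tspan14 and Tspan18, all in length classes 9 and 10. Such regions made up 7 of the family's 44, against 239 of all 8133 (2.94%). The 3 regions of Tspan14 are among these 7, and that of Tspan9 is exactly 6 kb wide. The share of all genes with so wide a region was not counted.

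**Figure D4:**
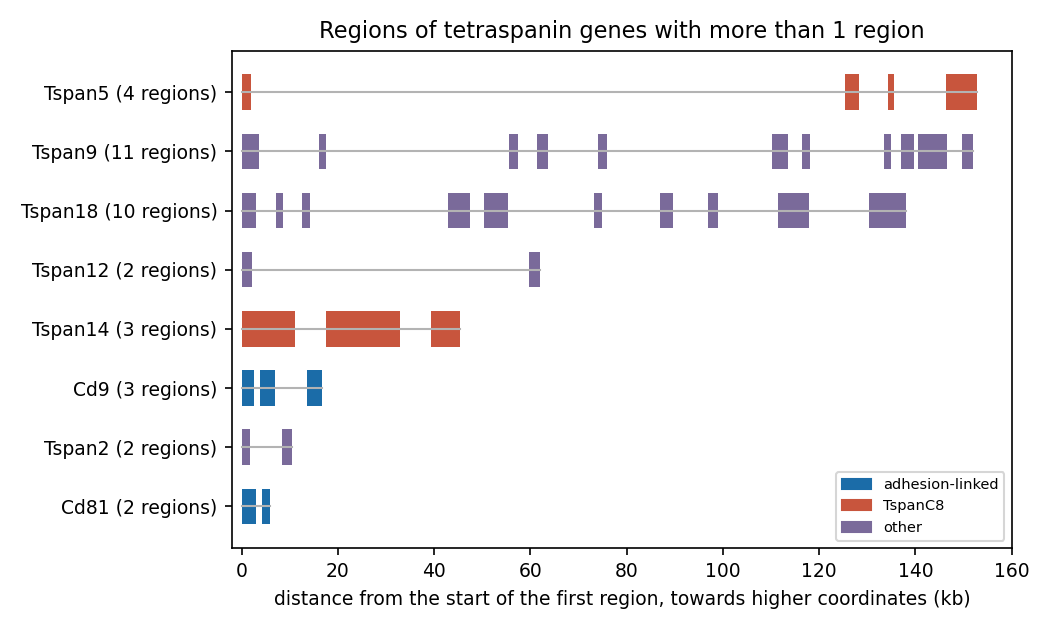
Blocks are the regions of the 8 tetraspanin genes with more than 1 region, drawn to scale as distance in kb from the start of each gene's region of lowest coordinate, and the thin line joins the first and last region. Both Tspan18 records are merged, giving 10 regions; Tspan14 has the widest blocks (up to 15.2 kb) and Tspan5 and Tspan9 the longest spread (152.85 and 151.9 kb).

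Some members are neighbours in the genome. Tspan18 and Cd82 follow each other on chromosome 2 with no protein-coding gene between them in RefSeq, and so do Tspan32 and Cd81 on chromosome 7. Both genes of each pair had a region. No region lay in the 102.55 kb between those of Tspan18 and Cd82, nor in the 48.3 kb between those of Tspan32 and Cd81. The median gap between neighbouring regions of the series was 67.7 kb. In 2 other close pairs only 1 gene had a region, Tspan9 but not Tspan11 beside it, and Cd151 but not Tspan4, with Polr2l between them.

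Genes that encode partners of tetraspanins were counted as a further list. Of 19 such genes 10 had a region (52.6%), against 20.9% of all protein-coding genes and 55.6% of the tetraspanins. Partners were not set beside genes of their own length. Each of the 10 but F11r, with 2 regions, had a single one. Their reads per kb ran from 426 at Adam17, a relative of ADAM10, to 1506 at F11r, a junctional adhesion protein. Igsf8, an immunoglobulin-like partner of CD9 and CD81, had 1491 reads per kb. Among the laminin-binding integrin chains that pair with CD151, the values were 974 reads per kb at Itga3, 514 at Itga6 and 1452 at Itgb1, while Itga7 had no region. Single regions were also found at Icam1 (775 reads per kb), an endothelial adhesion receptor for leukocytes, Hbegf (578), a growth factor precursor, and Sdcbp (589), which encodes the adaptor syntenin that binds CD63. Adam10 itself, 101 kb long, had no region, although 4 of the 6 genes of its escorts did. Of the receptors through which TSPAN12 acts, Lrp5 had a region (787 reads per kb) and Fzd4 had none. The remaining partners without a region were Ptgfrn, Itga4, Cd4, Epcam, Met and Vcam1. The 4 genes of related fold outside the naming rule, Upk1a, Upk1b, Prph2 and Rom1, had no region.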

How the data were processed

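Per the file headers, the single table that the authors deposited gives each gene a read count, summed over its assigned regions, and a signal, the same count per kb. In every row the signal equalled the count divided by the summed region length (both ends counted) within 0.005. Coordinates are of mm9, the build named in the submitters' processing notes. No aligner, caller, comparison with Dam or rule assigning regions to genes is named; these were not given in the sources used here. With 1 value per gene the planned edgeR test between lines was not made.

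Of 4771 protein-coding rows, 4671 (97.9%) matched a RefSeq gene (GRCm38.p6) by symbol or synonym on the same chromosome; this table gave names, lengths, strands and neighbours, and promoter windows carry its coordinates. Lengths were cut into 10 classes. A simulation with a share set for each class gave these shares back. It used the same classes, so it checks the code and not whether the classes account for length. Printed widths are end minus start. Poisson intervals used scipy 1.17.1, tables pandas 2.3.3. Every member with a region was named. The members and lists were chosen with earlier results of these data known. The partner list was to hold 1 further gene, which is not reported here and enters no count. Alternatives covered what counts as bound, matching, membership, background, length classes, scaling and width.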

Additional observations from a re-analysis of the deposited data

How the results depend on the processing

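The 15 tetraspanin genes with a region became 8 when 2 or more regions were required (background 6.41% of all protein-coding genes). They became 13 with single-gene regions only (background 18.0%) and 11 with reads per kb above the median of all listed genes (10.5%). The count stayed at 15 with symbols matched without synonyms (background 19.0%). It was also 15 with the 4 fold relatives added (of 31 genes, background 20.9%) and without chromosome X (of 25 genes, 20.8%). The share of all protein-coding genes with a region was 24.1% with predicted and receptor genes left out and 10.2% over genes of every type, in place of 20.9%; the cause was not tested. The share for genes of the members' lengths was 24.0% with 5 classes and 23.8% with 20, in place of 24.3%. The median reads per kb was 804 over the 7 regions whose own reads are known and 833 over the 13 genes with single-gene regions only, in place of 818. It was 1.20 times the median of all listed genes, and the median ratio to each gene's chromosome was 1.14. The median number of regions stayed at 2 with single-gene regions only, and the median span of 5.95 kb became 4.55 kb as summed width.

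No paired analysis was possible because the table has no values per library. For the same reason no fit without 1 replicate was made. Library depth is unknown, and a gene without a row is not shown to be unbound. The Dam signal at each gene was not analysed here.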

Other observations

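The transcript 2410057H14Rik, which RefSeq lists as Tspan2os, a long non-coding RNA beside Tspan2, was listed separately. It had 1 region of 1600 bp on chromosome 3 between 102527552 and 102529152, with 959 reads (exact 95% Poisson interval 899 to 1022) and 599 reads per kb, against 301 reads per kb in the Tspan2 regions. This region lay 23.1 kb from the nearest Tspan2 region and was assigned to no tetraspanin gene.

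The nearest region of another gene lay farthest from Tspan5 (252 kb, Metap1) and Tspan15 (238.5 kb, Col13a1) and, Tspan2 aside, closest to Cd151 (30.9 kb, Slc25a22), among the 15 tetraspanin genes with a region.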
